A study of Rattus norvegicus with 9 samples.

Results

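The miR-29 family was followed in rat hippocampus after repeated MK-801, an NMDA receptor antagonist used in rodents as a drug model of schizophrenia, with or without the antipsychotic clozapine (CLO). Members were the rows named rno-miR-29 followed by a, b or c, and 6 of the 633 mature miRNA rows met that rule: miR-29a-3p, miR-29a-5p, miR-29b-3p, miR-29b-5p, miR-29c-3p and miR-29c-5p. All groups were Sprague-Dawley rats, labelled as postnatal day 21 and described as 5 weeks old after 14 days of habituation, before any injection. The vehicle group (VEH) received saline for 14 and then 7 days. In the MK-801 group the first 14 days were 0.2 mg/kg MK-801 a day and the last 7 days saline. In the MK-801+CLO group those last 7 days were clozapine at 10 mg/kg, after an identical MK-801 phase. Each group held 10 rats and is represented by 3 small RNA libraries. The number of rats behind a library is not in the labels, so p-values measure only how these libraries vary, which may be technical. MK-801 given to young rats is a drug model, and no group received clozapine without MK-801.

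A miRNA is cut from a hairpin precursor, and the strand that is loaded into Argonaute (the guide) binds target mRNAs mainly through its seed, the bases near its 5′ end. The other strand (the passenger) is mostly degraded. In miR-29 the guide is the 3p strand. The family is known to repress the DNA methyltransferases Dnmt3a and Dnmt3b, collagen and other matrix genes, and pro-apoptotic BH3-only genes. In brain its level climbs as neurons mature after birth, and astrocytes express it as well.

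The 3 guides are shown because they share a seed and are so alike that the counting may not separate them. Sequences are RefSeq's for assembly GRCr8, 5′ to 3′, with bases 2 to 8, the seed, in capitals. All 6 rows were matched by name, and their deposited sequences were identical to RefSeq's apart from T for U.
miR-29a-3p: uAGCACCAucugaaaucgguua
miR-29b-3p: uAGCACCAuuugaaaucaguguu
miR-29c-3p: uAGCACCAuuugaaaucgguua
The seed AGCACCA was found in these 3 rows and in 0 other rows of the table. Counted from the 5′ end, miR-29a-3p and miR-29c-3p differ at 1 of 22 positions, C10U. From miR-29c-3p to miR-29b-3p there are 3 differences over 22 positions, G18A, U21G and A22U, and miR-29b-3p is 1 base longer. The end of miR-29b-3p, AGUGUU, is an element known to promote import into the nucleus. Among the 633 rows, 7 held AGUGUU anywhere (1.11%) and 2 ended with it, miR-29b-3p and miR-92b-5p. A match to these letters describes the sequence only.

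The passenger strands do not share a seed with each other or with any other row.
miR-29a-5p: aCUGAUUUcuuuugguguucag
miR-29b-5p: cUGGUUUCacaugguggcuuag
miR-29c-5p: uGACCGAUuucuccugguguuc
The 4 hairpins are shown because 2 of them encode the same guide. In them the mature strands are in capitals, the 5p strand first.
Mir29a: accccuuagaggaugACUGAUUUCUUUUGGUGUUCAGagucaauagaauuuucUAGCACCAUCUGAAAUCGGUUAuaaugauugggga
Mir29b1: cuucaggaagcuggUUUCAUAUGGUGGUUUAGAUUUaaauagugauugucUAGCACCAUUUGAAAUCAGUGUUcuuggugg
Mir29b2: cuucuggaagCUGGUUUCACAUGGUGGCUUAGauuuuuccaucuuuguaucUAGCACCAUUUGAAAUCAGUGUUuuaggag
Mir29c: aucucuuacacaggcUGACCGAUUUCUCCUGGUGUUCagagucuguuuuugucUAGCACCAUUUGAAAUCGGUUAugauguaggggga
The guide miR-29b-3p is encoded in both Mir29b1 and Mir29b2, so its count cannot be assigned to either gene. The row miR-29b-5p comes from Mir29b2. The 5p strand that RefSeq lists for Mir29b1 was not analysed here. At the same offset, the Mir29b1 hairpin differs from miR-29b-5p by C10U and C18U.

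In GRCr8 the 4 genes lie in pairs on different chromosomes, Mir29a beside Mir29b1 and Mir29b2 beside Mir29c. Mir29b2 and Mir29c lie within the span of the non-coding gene LOC102550527, between Cd34 and Cd46, and Klf14 is the protein-coding gene among the nearest neighbours of Mir29a. The build named in the processing notes is Rnor_6.0, so no positions are given. RefSeq also places Mir3556a, Mir3556b and Mir3587 on the opposite strand, and their mature strands are reverse complements of parts of miR-29a-3p, miR-29c-3p and miR-29b-3p. These antisense miRNAs were not analysed here, and the sources used here do not state whether the counting used strand.

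Total counts per library ran from 10665718 in MK-801+CLO replicate 2 to 18284905 in VEH replicate 3. In all, 469 miRNAs, all 6 members among them, had enough counts to be tested. Of the marker lists, which were chosen with earlier results of these data known, 8 of 8 neuronal miRNAs were in the table, and their summed level was 131831 to 137793 CPM (a read count divided by its library total, on a common scale) in VEH. It was 130412 to 152777 CPM after MK-801 and 123698 to 143284 CPM in MK-801+CLO. No listed marker in the table was at 0 in all libraries. Markers that a hippocampal sample should lack, those of muscle, liver and endocrine tissue, summed to 74.7 to 259 CPM. The sum of endothelial and smooth muscle miRNAs stood above both other groups in MK-801+CLO, at 25684 to 30249 CPM. It was 22715 to 24167 CPM in the MK-801 libraries and 21841 to 25141 CPM in VEH. Among single tested miRNAs, 11.5% did not overlap between MK-801+CLO and MK-801, and 17.5% did not overlap between MK-801+CLO and VEH. In that sum miR-143-3p alone had a mean of 21311 CPM in MK-801+CLO. Of the 5 listed miRNAs, 4 had a log2 fold change above 0 in each of these 2 comparisons, and 0 passed an adjusted p of 0.05. The sum of choroid plexus and ciliated ependymal miRNAs spread widely in VEH (3695 to 10428 CPM). It was 3465 to 4129 CPM after MK-801. With clozapine it was 2402 to 3649 CPM, so the highest of those libraries lay just below the lowest VEH library. In MK-801+CLO against VEH, 3 of the 7 tested miRNAs of this list had a log2 fold change above 0, beside 50.1% of all tested. Their median was -0.75 beside 0.003 for all, and 0 passed an adjusted p of 0.05. At an unadjusted p under 0.05 in edgeR 3 of 7 were lower and 1 of 7 higher, beside 7.46% of all each way. In MK-801 against VEH 0 of 7 lay above 0, beside 46.5% of all, with medians of -0.37 and -0.02. Among those above 0 in MK-801+CLO against VEH, miR-211-5p had a mean of 17.1 CPM against 11.6 CPM. The far more abundant miR-204-5p was lower, at 2149 CPM against 4998 CPM. Over all libraries, oligodendrocyte miRNAs ran from 4314 to 7342 CPM, reactive glia and leukocyte miRNAs from 1872 to 2385 CPM, and red blood cell miRNAs from 2710 to 3563 CPM. The part of these cell types in the miR-29 values was not tested. In dissected tissue, fewer cells of a type and less RNA per cell cannot be told apart.

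The family was abundant, and nearly all of it was guide strand. Together the 6 rows took 1.11% ± 0.0682 (SD, n = 3) of all counts in VEH, 1.18% ± 0.0371 in MK-801 and 1.20% ± 0.143 in MK-801+CLO. The 3p strands made up 99.6% to 99.7% of family counts in the 9 libraries. The order miR-29a-3p, miR-29c-3p, miR-29b-3p, miR-29c-5p, miR-29a-5p, miR-29b-5p held in 9 of 9 libraries. The rows are 22 or 23 bases long. Whether length, reads shared between the guides or adapter ligation that favours some RNA ends enters these levels was not tested. By mean level, miR-29a-3p ranked 22nd, miR-29c-3p 63rd and miR-29b-3p 97th of the 633 rows, while miR-29b-5p ranked 373rd.

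MiR-29a-3p, the main guide of the family, supplied 82.2% to 85.9% of family counts. Its level was 9358, 9895.5 and 8755 CPM in VEH replicates 1 to 3, and 9746, 9487 and 10163 CPM in the MK-801 replicates. With clozapine it was 10812, 8896 and 11036 CPM. MK-801+CLO replicates 1 and 3 were the highest of the 9 libraries, replicate 2 lay near the lowest VEH library, and the groups overlapped. The group means were 9336 ± 571 CPM, 9799 ± 341 CPM and 10248 ± 1176 CPM (SD, n = 3) for VEH, MK-801 and MK-801+CLO, an order in which neighbours did not differ beyond their spread.

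MiR-29c-3p, the guide of Mir29c, differs from miR-29a-3p by a single base and came next in level. It stood at 1155, 1301 and 1167 CPM in VEH, at 1443, 1272 and 1327 CPM after MK-801 and at 1328, 1097 and 1364 CPM in MK-801+CLO. MK-801 replicate 1 was the highest and MK-801+CLO replicate 2 the lowest library, and all 3 groups overlapped. The mean was 1208 ± 81.0 CPM in VEH, 1347 ± 87.4 CPM in MK-801 and 1263 ± 145 CPM in MK-801+CLO.

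MiR-29b-3p, the guide with the nuclear element, varied most among the guides. VEH replicates 1 to 3 held 469, 590 and 509 CPM, the MK-801 replicates 621, 555 and 551 CPM, and the MK-801+CLO replicates 560, 334 and 458 CPM. The last of these groups held both the lowest libraries and a library within the MK-801 range. The low value of MK-801+CLO replicate 2 had a 95% Wilson interval of 323 to 345 CPM, against 547 to 573 CPM in replicate 1 of that group, so it lay outside counting error. Means were 523 ± 61.3 CPM in VEH, 576 ± 39.2 CPM in MK-801 and 451 ± 113 CPM in MK-801+CLO.

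The passenger strands were present at low levels. MiR-29c-5p, the most abundant of them, stood at 23.8, 21.8 and 21.2 CPM in VEH, 22.1, 21.7 and 20.7 CPM after MK-801 and 23.4, 15.4 and 21.4 CPM in MK-801+CLO. Only MK-801+CLO replicate 2 lay apart, at a Wilson interval of 13.2 to 17.9 CPM. MiR-29a-5p was at 13.6, 13.6 and 11.5 CPM in VEH, 16.7, 12.0 and 10.9 CPM after MK-801 and 18.4, 9.19 and 10.8 CPM in MK-801+CLO, with replicate 1 the highest in both drug groups. MiR-29b-5p rested on 33 to 78 counts per library and ran from 3.09 to 4.64 CPM. Its lowest library, MK-801+CLO replicate 2, had a Wilson interval of 2.20 to 4.34 CPM, which reaches the 4.27 ± 0.105 CPM mean of VEH, so a difference there was not detectable at this depth.

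**Figure D1:**
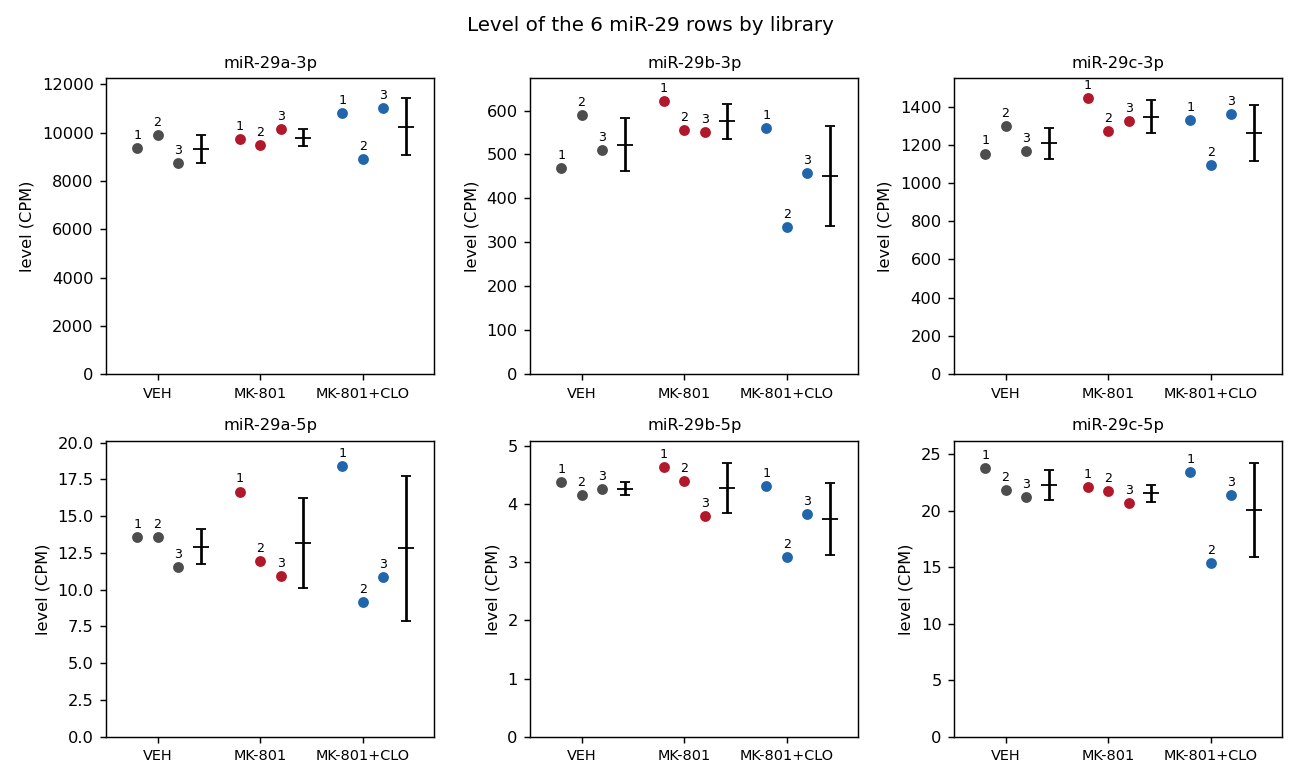
Level in CPM (linear axes from 0) of each of the 6 miR-29 rows in each library, 3p strands above and 5p strands below. Points are libraries with their replicate number, and black bars give the group mean ± SD (n = 3). MK-801+CLO replicate 2 is the lowest library for miR-29b-3p (334 CPM), miR-29c-3p, miR-29c-5p, miR-29a-5p and miR-29b-5p, and the groups overlap in every panel.

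MK-801 was first set against VEH, the contrast that tests the MK-801 course without clozapine. No member of the family passed, and each member had groups that overlapped. Of the 469 miRNAs tested with edgeR's quasi-likelihood test, 0 passed an adjusted p of 0.05 (0.00%), 24 were under an unadjusted p of 0.05 (5.12%), and DESeq2 called 1. Of the 6 members, 0 were among any of these. The guides lay above VEH by a log2 fold change of 0.09 ± 0.10 (SE) for miR-29a-3p, 0.18 ± 0.11 for miR-29c-3p and 0.16 ± 0.16 for miR-29b-3p, with adjusted p-values from edgeR of 0.856, 0.814 and 0.841. With 1 library left out, miR-29a-3p ran from 0.046 (without MK-801 replicate 3) to 0.15 (without MK-801 replicate 2), miR-29c-3p from 0.12 (without MK-801 replicate 1) to 0.26 (without MK-801 replicate 2) and miR-29b-3p from 0.076 (without VEH replicate 1) to 0.26 (without VEH replicate 2). The 95% interval for miR-29a-3p ran from a ratio of 0.912 to 1.25, and for miR-29c-3p from 0.956 to 1.35. The passengers were at 0.06 ± 0.24 for miR-29a-5p, 0.02 ± 0.17 for miR-29b-5p and -0.03 ± 0.14 for miR-29c-5p. In all, 5 of 6 members lay above 0, against 46.5% of tested miRNAs, and the members' median was 0.08 beside -0.02 for all. Leaving out MK-801 replicate 1 gave a median of 0.018 with 3 of 6 members above 0, and leaving out MK-801 replicate 2 gave 0.15 with 6 of 6. The groups did not overlap in CPM for 13.9% of tested miRNAs and for 0 of 6 members.

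Clozapine given after the drug course was then set against the drug course alone, MK-801+CLO against MK-801. Here the guides parted in sign, although none passed the test. MiR-29b-3p lay below MK-801 by a log2 fold change of -0.32 ± 0.16, with an unadjusted p of 0.0804 and an adjusted p of 0.623 in edgeR, and its 95% interval ran from a ratio of 0.622 to 1.03. MiR-29a-3p was at 0.10 ± 0.10 (adjusted p = 0.761 in edgeR) and miR-29c-3p at -0.06 ± 0.11 (adjusted p = 0.881). The passengers were at -0.01 ± 0.25 for miR-29a-5p, -0.15 ± 0.18 for miR-29b-5p and -0.06 ± 0.15 for miR-29c-5p. The miR-29b-3p value moved most with MK-801+CLO replicates 1 and 2, since it was -0.16 without replicate 2 and -0.48 without replicate 1. Of all miRNAs 0 passed in edgeR (0.00%), 39 were under an unadjusted p of 0.05 (8.32%), of which 0 were members, and DESeq2 called 2. Above 0 were 1 of 6 members and 48.8% of all, the members' median was -0.06 beside -0.004 for all, and 11.5% of all and 0 of 6 members had groups that did not overlap. Without MK-801+CLO replicate 2 that median was 0.06, with 4 of 6 members above 0. Upper-quartile scaling moved the median of all miRNAs to -0.12, and miR-29a-3p then stood at -0.02 and miR-29b-3p at -0.45, with 6 of 6 members below 0 and miR-29b-3p under an unadjusted p of 0.05. In MK-801 against VEH that scaling moved the median of all to 0.07 and miR-29c-3p to 0.28, also under an unadjusted p of 0.05.

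The last contrast, MK-801+CLO against VEH, covers both drugs. It shares the clozapine libraries with the comparison before it and the VEH libraries with the first, so the 3 sets of values are not independent. MiR-29a-3p lay above VEH by a log2 fold change of 0.20 ± 0.10, with an unadjusted p of 0.0846 and an adjusted p of 0.390 in edgeR, and a 95% interval from a ratio of 0.978 to 1.34. Without MK-801+CLO replicate 3 that value was 0.10, and without replicate 2 it was 0.26 (adjusted p = 0.210). MiR-29c-3p was at 0.13 ± 0.11, which was 0.026 without MK-801+CLO replicate 3 and 0.19 without replicate 2. MiR-29b-3p was at -0.16 ± 0.16, which was -0.01 without MK-801+CLO replicate 2 and -0.31 without replicate 1. The passengers were at 0.05 ± 0.25 for miR-29a-5p, -0.12 ± 0.18 for miR-29b-5p and -0.09 ± 0.15 for miR-29c-5p. Of all miRNAs 0 passed in edgeR (0.00%), 70 were under an unadjusted p of 0.05 (14.9%), of which 0 were members, and DESeq2 called 11 that did not include a member. Above 0 were 3 of 6 members and 50.1% of all, with medians of -0.02 and 0.003, and groups did not overlap for 17.5% of all and 0 of 6 members.

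**Figure D2:**
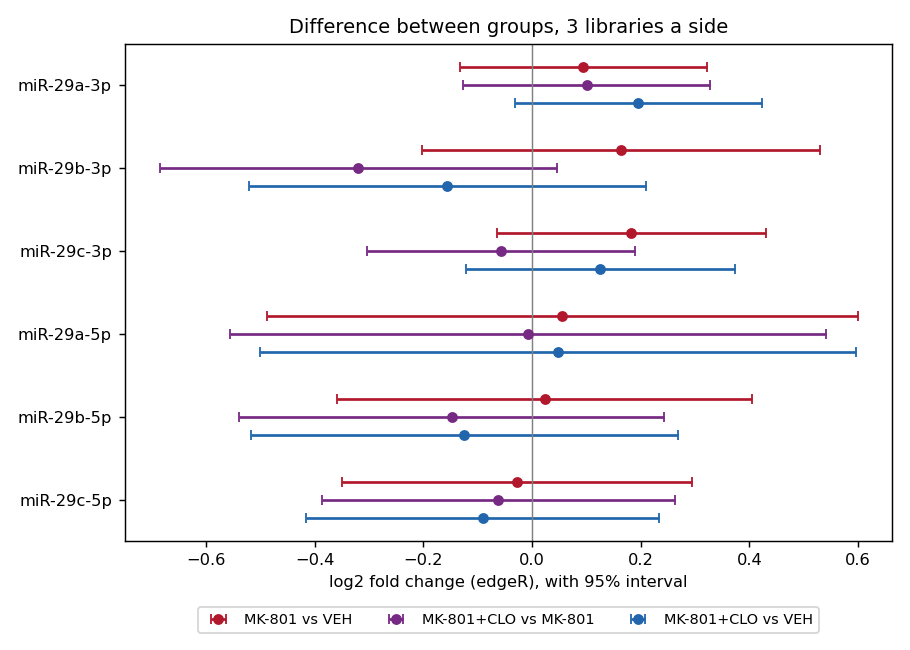
Log2 fold change (points) with its 95% interval (bars) from edgeR for each miR-29 row in the 3 comparisons, 3 libraries a side. Each interval includes 0, and the widest belong to miR-29a-5p; miR-29b-3p in MK-801+CLO against MK-801 lies farthest from 0, at -0.32.

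Ratios between members within a library do not depend on how libraries are scaled. They are ratios of counts, and reads shared between the guides and adapter ligation that favours some RNA ends can enter them. They therefore do not measure the balance of the guides directly. The ratio of miR-29a-3p to miR-29b-3p was 19.9, 16.8 and 17.2 in VEH and 15.7, 17.1 and 18.4 in MK-801. It was 19.3, 26.6 and 24.1 in MK-801+CLO, above every MK-801 library and, except for replicate 1, above every VEH library. The ratio of miR-29a-3p to miR-29c-3p was 8.14, 8.11 and 8.09 in MK-801+CLO, against 6.75, 7.46 and 7.66 in MK-801 and 8.10, 7.61 and 7.50 in VEH. These clozapine libraries lay above the MK-801 libraries and overlapped VEH replicate 1. The ratio of miR-29c-3p to miR-29b-3p overlapped between all groups, at 2.21 to 2.46 in VEH, 2.29 to 2.41 in MK-801 and 2.37 to 3.28 in MK-801+CLO.

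Such separation of ratios was common among all miRNAs. Of the 15 ratios between 2 members, 3 did not overlap between MK-801+CLO and MK-801, those of miR-29a-3p to miR-29b-3p, of miR-29a-3p to miR-29c-3p and of miR-29b-3p to miR-29c-5p. Among all 109746 pairs of tested miRNAs the share was 12.5%. Against VEH, 2 of 15 ratios did not overlap in MK-801+CLO, those of miR-29a-3p to the passengers miR-29b-5p and miR-29c-5p, beside 18.2% of all pairs, and 0 of 15 did in MK-801, beside 12.0%. The 15 ratios share members, and their differences were not tested.

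**Figure D3:**
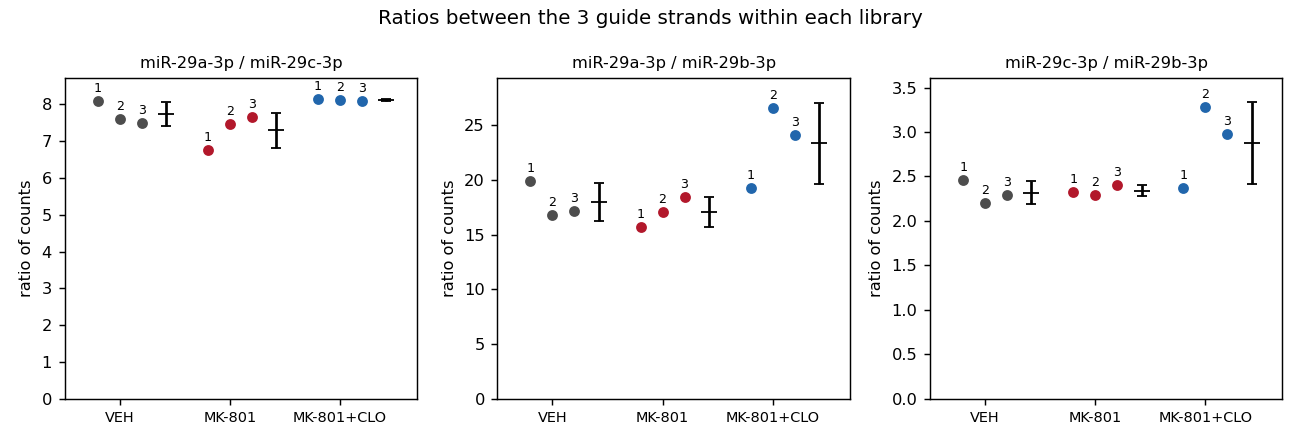
Ratio of counts between the 3 guides in each library (linear axes from 0), with group mean ± SD (n = 3) as black bars and replicate numbers at the points. The ratio of miR-29a-3p to miR-29b-3p reaches 26.6 and 24.1 in MK-801+CLO replicates 2 and 3, while that of miR-29a-3p to miR-29c-3p stays between 8.09 and 8.14 in that group.

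Strand ratios differed far more between the hairpins than between the groups. The 3p strand outnumbered the 5p strand by 584 to 1018 counts to 1 for miR-29a and by 48.6 to 71.3 to 1 for miR-29c. For miR-29b the ratio was 107 to 145, but there the 3p count adds up 2 genes and the 5p count only Mir29b2. The miR-29a ratio had a mean of 725 ± 35.4 in VEH, 768 ± 173 in MK-801 and 857 ± 236 in MK-801+CLO, with replicate 1 the lowest library in each group. The miR-29c ratio was 54.4 ± 5.55, 62.6 ± 3.57 and 64.0 ± 7.27 in the same order. These spreads overlap. For the passengers of the neighbouring genes Mir29c and Mir29b2, there were 4.77 to 5.58 counts of miR-29c-5p for each count of miR-29b-5p over all 9 libraries. The ratio of miR-29a-3p to miR-29c-3p, from genes on different chromosomes, also had a narrow range, 6.75 to 8.14. These guides differ by a single base, and reads shared between them can enter that ratio. Whether a narrow range is particular to neighbours was therefore not tested.

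**Figure D4:**
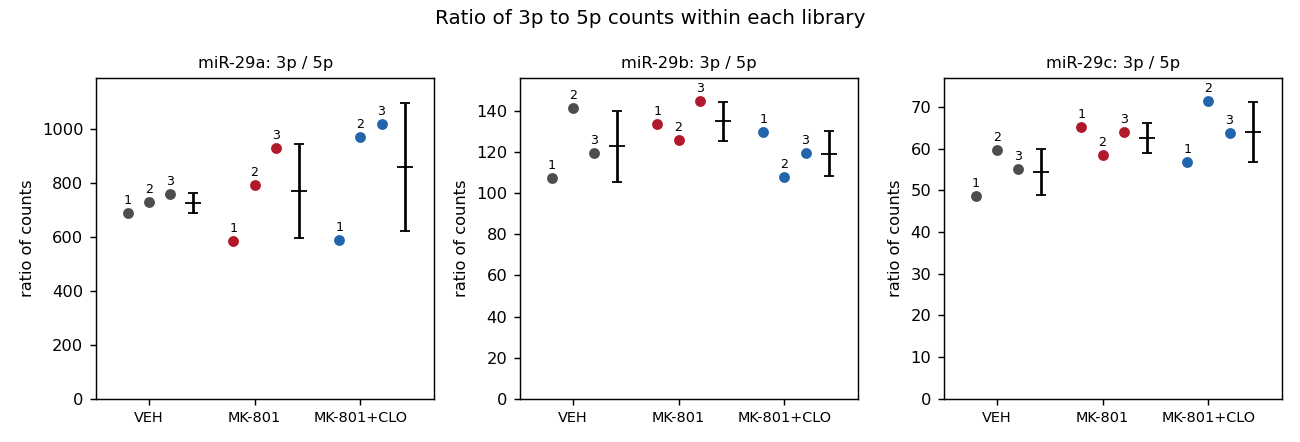
Ratio of 3p to 5p counts in each library for miR-29a, miR-29b and miR-29c (linear axes from 0, different scales), with group mean ± SD (n = 3) as black bars. The miR-29a ratio reaches 1018 in MK-801+CLO replicate 3 and 584 in MK-801 replicate 1, and the groups overlap in each panel.

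Members moved together only in part across the 9 libraries. Pearson's r of log2 CPM, given as a description of libraries that share their groups and scaling, was 0.79 between miR-29a-3p and miR-29c-3p, 0.63 between miR-29c-3p and miR-29b-3p and 0.24 between miR-29a-3p and miR-29b-3p, which Mir29a and Mir29b1 encode side by side. Passengers of the Mir29b2 and Mir29c pair stood at 0.87. A guide and its own passenger stood at 0.29 for miR-29a, 0.81 for miR-29b and 0.46 for miR-29c. MK-801+CLO replicate 2, the lowest library for 5 of the 6 rows and the one with the fewest total counts, weighed on several of these values. Without it, a setting chosen after seeing the data, r over 8 libraries was 0.41 for the passengers of Mir29b2 and Mir29c, 0.32 for miR-29b-3p with its passenger, 0.19 for miR-29c-3p with its passenger and 0.20 for miR-29a-3p with its passenger. Between guides it was then 0.79 for miR-29a-3p with miR-29c-3p, 0.56 for miR-29c-3p with miR-29b-3p and 0.095 for miR-29a-3p with miR-29b-3p. By edgeR, the biological coefficient of variation was 11.1% for miR-29a-3p, 12.0% for miR-29c-3p and 15.9% for miR-29b-3p, all under the common value of 17.2%, and 21.3% for miR-29a-5p.

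The miRNAs outside the family with the highest correlation differed between the guides. The 3 named per guide are the highest of 328 values of r over 9 libraries. High values can therefore arise from the picking alone, and no likeness was tested. The median r over the 328 was 0.003 for miR-29a-3p, 0.037 for miR-29c-3p and 0.031 for miR-29b-3p. Among 328 miRNAs with at least 10 CPM, miR-29a-3p was closest to miR-132-3p (r = 0.91, Spearman's rho = 0.93 over 9 libraries), miR-212-5p (r = 0.90) and miR-194-5p (r = 0.89), where miR-132 and miR-212 form the cluster induced by neuronal activity. MiR-132-3p shared its high libraries, with 2429 and 2582 CPM in MK-801+CLO replicates 1 and 3 against 1574 CPM in replicate 2, and 1512 to 1847 CPM in the other groups. Without the 2 libraries farthest from the miR-29a-3p median, VEH replicate 3 and MK-801+CLO replicate 3, 7 libraries were left. There r was 0.76 for miR-132-3p, 0.88 for miR-212-5p and 0.69 for miR-194-5p. MiR-29c-3p was closest to miR-190a-5p (r = 0.92, rho = 0.87), miR-30e-5p (0.88) and miR-101a-3p (0.80). Without its 2 farthest libraries, MK-801 replicate 1 and MK-801+CLO replicate 3, these were 0.84, 0.82 and 0.62. MiR-29b-3p was closest to miR-539-3p (r = 0.89, rho = 0.70), miR-3068-5p (0.85) and miR-433-5p (0.84). Without MK-801 replicate 1 and MK-801+CLO replicate 2 these were 0.44, 0.39 and 0.87, so the first and second rest on those libraries. Without MK-801+CLO replicate 2 alone, a setting chosen after seeing the data, r over 8 libraries was 0.91 for miR-132-3p with miR-29a-3p, 0.96 for miR-190a-5p with miR-29c-3p and 0.65 for miR-539-3p with miR-29b-3p.

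Other miRNAs with targets in the same processes were read from 2 lists, also chosen with earlier results known. Of 12 miRNAs reported to repress DNA methylation and chromatin regulators, 0 passed the adjusted test in any comparison. In MK-801 against VEH 8 of 12 lay above 0 (46.5% of all tested miRNAs did), with a median of 0.04 beside -0.02 for all, and miR-101a-3p (0.35 ± 0.10) and miR-101b-3p (0.28 ± 0.11), repressors of Ezh2, were under an unadjusted p of 0.05, as were 5.12% of all. In MK-801+CLO against MK-801 7 of 12 lay above 0 beside 48.8% of all, with medians of 0.02 and -0.004, and miR-143-3p (0.33 ± 0.09) and miR-212-3p (0.32 ± 0.12) were under that unadjusted limit beside 8.32% of all. Against VEH 10 of 12 lay above 0 beside 50.1% of all, with medians of 0.19 and 0.003. There 5 of 12 were under the unadjusted limit beside 14.9% of all, led by miR-143-3p (0.32 ± 0.09), miR-101a-3p (0.28 ± 0.10), miR-212-3p (0.30 ± 0.12) and miR-132-3p (0.42 ± 0.16). Of these, miR-143-3p is also in the endothelial and smooth muscle list, and miR-132-3p is in the neuronal list. MiR-132 and miR-212 come from the same cluster, so the counts of this list are not separate observations. Of 9 tested matrix and fibrosis miRNAs, 5, 6 and 7 lay above 0 in the same order of comparisons, beside 46.5%, 48.8% and 50.1% of all. Their medians were 0.03, 0.22 and 0.12, beside -0.02, -0.004 and 0.003 for all, and 0 passed the adjusted test. In each of the last 2 comparisons 1 of 9 was under an unadjusted p of 0.05, beside 8.32% and 14.9% of all. It was miR-133a-3p, a muscle miRNA, at 0.45 ± 0.18 and 0.48 ± 0.18 (unadjusted p = 0.0304 and 0.0239 in edgeR). That miRNA is also among the markers that a hippocampal sample should lack. Of 3 such markers tested, 2 lay above 0 in each of these 2 comparisons, with medians of 0.38 and 0.35. The sum of these markers was 74.7 to 157 CPM in MK-801+CLO, 112 to 259 CPM in MK-801 and 153 to 257 CPM in VEH. Whether other tissue was carried over was not tested.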

How the data were processed

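The authors deposited 1 table with whole-number counts per mature miRNA and library and a second set headed TPM. The deposited values headed TPM carry no length term and equal CPM to within 0.000473%. Tools and build named per the submitters' processing notes are Bowtie, cutadapt 1.14, DESeq and Rnor_6.0, with no role stated. The sources used here do not state how reads matching several miRNAs were assigned. Adapter ligation favours some RNA ends, so levels of different miRNAs compare less well than 1 miRNA across libraries. Of the lines, 21 were blank and 1 name was split and rejoined.

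The counts were tested with edgeR 4.0.16 under R 4.3.3 (filterByExpr, TMM, glmQLFit and glmQLFTest), with 1 mean per group over all 9 libraries, with Benjamini-Hochberg adjustment over 469 miRNAs. SE is the log2 fold change over the root of F, and 95% intervals use edgeR's degrees of freedom. Code was tested on simulated data. Alternatives were DESeq2 1.42.0, limma 3.58.1, other scalings and filters, a replicate block and each library left out. A count of 0 allows 0.164 to 0.281 CPM (3 counts), and Wilson intervals cover counting error only.

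Members and lists were chosen with earlier results of these data known. Each member is named, with the 3 most correlated miRNAs per guide, and from the epigenetic and matrix lists those with an unadjusted p under 0.05, up to 4. No 2 libraries of a group agreed within sampling noise.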

Additional observations from a re-analysis of the deposited data

How the results depend on the processing

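No member passed an adjusted p of 0.05 under any of the alternatives run, for which the smallest adjusted p of a member was 0.210 (limma, DESeq2 and edgeR settings and single libraries left out). Of 321 member values under alternatives, 299 kept their direction and 22 turned. With upper-quartile factors miR-29c-5p was at 0.063 in MK-801 against VEH and miR-29a-3p at -0.017 in MK-801+CLO against MK-801. In limma-trend with a pseudocount of 0.1, miR-29b-5p was at -0.00015 in MK-801 against VEH. MiR-29a-5p in MK-801+CLO against MK-801 was at 0.0025 with RLE factors and 0.00096 in DESeq2, and against VEH at -0.0049 with library totals and at -0.063 and -0.071 in limma-trend with pseudocounts of 1 and 0.1. The cause of these turns was not tested. Upper-quartile factors gave 28 higher and 6 lower miRNAs at an unadjusted p under 0.05 in MK-801 against VEH, against 14 and 10 with TMM, 4 and 44 in MK-801+CLO against MK-801, against 22 and 17, and 28 and 40 in MK-801+CLO against VEH, against 35 and 35. Library totals gave 12 and 13, 15 and 20, and 17 and 46.

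Leaving out 1 library at a time, the values in MK-801 against VEH ran from -0.16 to 0.16 for miR-29a-5p, from -0.053 to 0.082 for miR-29b-5p and from -0.063 to 0.0086 for miR-29c-5p. In MK-801+CLO against MK-801 they ran from -0.33 to 0.21 for miR-29a-5p, from -0.14 to 0.028 for miR-29c-3p and from -0.16 to 0.084 for miR-29c-5p. In MK-801+CLO against VEH they ran from -0.27 to 0.20 for miR-29a-5p and from -0.19 to 0.036 for miR-29c-5p, and the members' median ran from -0.20 (without MK-801+CLO replicate 1) to 0.11 (without replicate 2). That median ran from -0.20 to 0.056, without the same libraries, in MK-801+CLO against MK-801, and from 0.018 (without MK-801 replicate 1) to 0.15 (without MK-801 replicate 2) in MK-801 against VEH. The miR-29a-3p value in MK-801+CLO against MK-801 ran from 0.024 (without MK-801+CLO replicate 3) to 0.19 (without replicate 2). The count of all miRNAs past the threshold, 0 in edgeR, was 1, 2 and 11 in DESeq2 for the 3 comparisons in the order of the report. With a library left out it ran from 0 to 1 (1 without MK-801 replicate 2), from 0 to 2 and from 0 to 7 (2 and 7 without MK-801+CLO replicate 2), with 0 members among them. At a mean of at least 10 CPM, miR-29b-5p was not tested. MiR-29b-3p in MK-801+CLO against MK-801 was under an unadjusted p of 0.05 at that filter (0.0464), with upper-quartile factors (0.0105) and without MK-801+CLO replicate 1 (0.0169), with adjusted p-values in edgeR no lower than 0.380.

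Same-numbered libraries did not deviate together, since 2 of 9 pairs had a correlation over 0.1 and 1 of 9 libraries correlated best with its own number. With the replicate block, 0 members and 0 miRNAs passed, and miR-29b-3p in MK-801+CLO against MK-801 was at -0.33 (adjusted p = 0.728 in edgeR). Depth limits miR-29b-5p most, with 33 counts in its lowest library.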
